A study of Homo sapiens with 3 samples.

Results

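Neurofilaments are the intermediate filaments of axons, and together with microtubules they form the cytoskeleton that gives a neuron its shape. The 10 genes described here encode neuronal intermediate filaments (*NEFL*, *NEFM*, *NEFH* and *INA*), neuronal beta-tubulins (*TUBB2B* and *TUBB3*) and microtubule regulators (*DPYSL3*, *CRMP1*, *STMN2* and *MAP2*). They were listed by gene symbol with earlier results of these data known, so their counts below are descriptions, and all 10 were found among the 58735 genes of the count table. Each had at least 10 counts over the 3 libraries, the minimum for a fold change to be read, and 8 had at least 300.

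RNA-seq compared 3 stable lines that the labels give as HCT116, an established human colorectal carcinoma cell line, with 1 library per group. All 3 lines carried an shRNA against TCF7L1 (shTCF7L1-2), delivered by lentivirus, and all were treated with doxycycline (Dox) at 1 µg/ml. The vector group held the empty Dox-inducible plasmid, the TCF7L1 group the same plasmid with a FLAG-tagged, shRNA-resistant TCF7L1 cDNA, and the TCF7L1-MUT group that cDNA with substitutions in the HMG box that impair DNA binding. TCF7L1 is a TCF/LEF family transcription factor that represses Wnt target genes, and the comparisons ask which genes differ when it, or its DNA-binding mutant, is expressed. The lines had been selected with puromycin, and whether each was a single clone is not given in the sources used here.

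The libraries held 24190426, 17466191 and 20328324 counted reads for the vector, TCF7L1 and TCF7L1-MUT. TCF7L1 itself had 496, 10723 and 2529 counts in that order, and these counts do not separate the endogenous gene from the transgene. The TCF7L1-MUT library thus held fewer TCF7L1 reads than the TCF7L1 library. Because each group is 1 library, no difference below has a replicate check, and every fold change compares libraries, not conditions. Fold changes are log2 ratios of counts scaled by TMM, a method that sets libraries to a common size through genes that differ little. Their 95% intervals are exact binomial (Clopper-Pearson) intervals that cover counting error only. Counts are printed unscaled and fewer reads were counted in the construct libraries than in the vector library, so directions are read from the fold changes. Levels of different genes are compared in FPKM, which divides counts by gene length and library size.

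In neurons, *NEFL* assembles with *NEFM*, *NEFH* or *INA* into filaments that set the calibre of axons, and these proteins serve as markers of neurons and of neuronal damage. Microtubules are built from alpha- and beta-tubulin, and *TUBB3* and *TUBB2B* are the beta-tubulin isotypes typical of developing neurons. *CRMP1* and *DPYSL3* belong to the collapsin response mediator proteins, which relay axon guidance signals to the cytoskeleton. *STMN2* is a neuronal stathmin that binds tubulin dimers, and *MAP2* binds and stabilises microtubules in dendrites. In a colorectal line such genes are not lineage markers, and their RNA is read here only as a measured level.

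The promoter sequences of 4 genes are shown because the constructs differ in a DNA-binding factor, and because these genes take in both directions of change. Each is the 250 bases before a RefSeq start on GRCh38.p14, read 5′ to 3′ on the gene's strand. *CRMP1* and *TUBB3* have more than 1 such start, and the most upstream was taken for *CRMP1* and the most downstream for *TUBB3*. These choices followed no common rule, so the windows shown do not stand for the other starts of these genes. *TUBB2B* is at chr6:3227654-3227903 on the minus strand, *TUBB3* at chr16:89923092-89923341 on the plus strand, *CRMP1* at chr4:5893087-5893336 on the minus strand and *INA* at chr10:103276888-103277137 on the plus strand. The *TUBB2B* and *TUBB3* windows lie within the gene spans of the deposited table, which reach further upstream, and the other 2 lie just outside theirs. Capitals mark the TCF core CTTTGA or its other form CTTTGT, the CCAAT box (CCAAT) and the GC box (GGGCGG), each searched on both strands, so that a match on the other strand shows as its reverse complement.
TUBB2B: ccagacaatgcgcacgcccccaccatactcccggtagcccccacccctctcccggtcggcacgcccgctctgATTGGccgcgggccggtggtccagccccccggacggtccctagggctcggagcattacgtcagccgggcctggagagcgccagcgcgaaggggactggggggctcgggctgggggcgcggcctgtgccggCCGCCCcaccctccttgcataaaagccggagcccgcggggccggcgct
TUBB3: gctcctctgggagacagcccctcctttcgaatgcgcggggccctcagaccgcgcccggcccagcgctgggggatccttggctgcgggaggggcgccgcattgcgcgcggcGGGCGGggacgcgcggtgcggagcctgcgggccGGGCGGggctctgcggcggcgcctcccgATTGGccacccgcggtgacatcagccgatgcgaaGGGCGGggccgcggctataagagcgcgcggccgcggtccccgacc
CRMP1: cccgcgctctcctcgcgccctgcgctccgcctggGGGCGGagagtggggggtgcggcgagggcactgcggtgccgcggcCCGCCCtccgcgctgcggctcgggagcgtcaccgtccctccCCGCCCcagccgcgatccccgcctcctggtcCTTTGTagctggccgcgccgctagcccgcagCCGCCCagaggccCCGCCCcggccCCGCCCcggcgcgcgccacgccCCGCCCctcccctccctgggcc
INA: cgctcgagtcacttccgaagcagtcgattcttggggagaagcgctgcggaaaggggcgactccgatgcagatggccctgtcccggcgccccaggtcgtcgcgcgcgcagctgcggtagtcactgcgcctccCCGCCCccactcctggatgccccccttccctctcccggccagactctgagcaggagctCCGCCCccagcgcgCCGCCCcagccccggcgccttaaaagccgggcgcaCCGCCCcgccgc

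These promoters were rich in G and C, at 75.2% for *TUBB2B*, 78% for *TUBB3*, 82.8% for *CRMP1* and 72.8% for *INA*. RefSeq windows of 300 bases, from 250 before to 50 after a start, were matched for 6 of the genes and gave 13 windows (4 for *CRMP1*, 3 for *MAP2*, 2 each for *DPYSL3* and *TUBB3*, and 1 each for *INA* and *TUBB2B*). The letters CTTTGA were in 0 of the 13, against 12.9% of all 34796 windows, and CTTTGT was in 3, of *CRMP1* and *MAP2*, against 16.1%. The CCAAT box was in 3 windows, of *MAP2*, *TUBB2B* and *TUBB3*, against 34.6% of all windows. The GC box was in 8 windows, of *CRMP1*, *DPYSL3*, *INA*, *TUBB2B* and *TUBB3*, against 44.9%. A match describes letters and not a bound site, windows of 1 gene can overlap, and *NEFL*, *NEFM*, *NEFH* and *STMN2* were not matched.

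Among the filament genes, *NEFL* and *NEFM* had their lowest value with TCF7L1, *INA* was lowest in the TCF7L1-MUT library, and *NEFH* was near the limit of detection. *NEFL*, the light chain on which the heteropolymer is built, lies on chromosome 8 from 24950955 to 24957110 (GRCh38, minus strand) and has 4 exons. It had 2694 counts with the vector, 610 with TCF7L1 and 1478 with TCF7L1-MUT, or 24.6, 8.18 and 17.0 FPKM. The TCF7L1 library thus held the lowest value and TCF7L1-MUT stood between it and the vector. The log2 fold change was -1.62 (95% interval -1.75 to -1.50) for TCF7L1 over vector, a level 3.08-fold lower, and -0.55 (-0.64 to -0.46) for TCF7L1-MUT over vector. Between the constructs, TCF7L1 over TCF7L1-MUT, it was -1.07 (-1.21 to -0.94).

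*NEFM*, the medium chain, whose long phosphorylated tail projects from the filament, is the neighbour of *NEFL* on chromosome 8, from 24913012 to 24919098 on the plus strand, with 3 exons. It had 1813, 262 and 1240 counts in the vector, TCF7L1 and TCF7L1-MUT libraries, or 16.4, 3.47 and 14.1 FPKM. The vector and TCF7L1-MUT values lay near each other and the TCF7L1 value far below. TCF7L1 over vector was -2.27 (-2.47 to -2.09) on the log2 scale, 4.83-fold lower, while TCF7L1-MUT over vector was -0.23 (-0.34 to -0.13). TCF7L1 over TCF7L1-MUT was -2.04 (-2.24 to -1.85), or 4.11-fold lower. Of the 12572 genes with at least 300 counts, 1.00% had a more negative fold change than *NEFM* over the vector and 0.239% over TCF7L1-MUT. By the GENCODE 44 annotation, 960 of the 3635 exonic bases of *NEFM* (26.4%) are shared with the antisense gene *AF106564.1*, and the library kit does not mark strand. *AF106564.1* had 56, 11 and 24 counts. Reads in shared bases may have been dropped from both genes by the counting, so these counts do not show how many *NEFM* reads were lost.

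*NEFH*, the heavy chain (chromosome 22, 29480230 to 29491390, plus strand, 4 exons), had 25 counts in the vector library, 14 in TCF7L1 and 17 in TCF7L1-MUT, or 0.262, 0.215 and 0.223 FPKM. Its intervals were wide and held 0 in every comparison, from -1.38 to 0.68 for TCF7L1 over vector and from -1.22 to 0.71 for TCF7L1-MUT over vector, so that a difference was not detectable at this depth. *INA*, alpha-internexin, a filament protein that appears early in neuronal development, lies on chromosome 10 from 103277163 to 103290351 (plus strand, 3 exons). It had 214 counts in the vector library, 110 in TCF7L1 and 52 in TCF7L1-MUT, or 2.62, 1.98 and 0.800 FPKM. Here the lowest library was TCF7L1-MUT, in contrast to *NEFL* and *NEFM*. The log2 fold change was -1.73 (-2.19 to -1.28) for TCF7L1-MUT over vector, 3.31-fold lower, but -0.44 (-0.79 to -0.10) for TCF7L1 over vector. TCF7L1 over TCF7L1-MUT was 1.28 (0.79 to 1.79), or 2.43-fold higher, and 0.0398% of the genes with at least 300 counts had a higher value. With 376 counts over the 3 libraries *INA* lay close to that minimum, so its ratio is less sure than those of better counted genes.

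**Figure D1:**
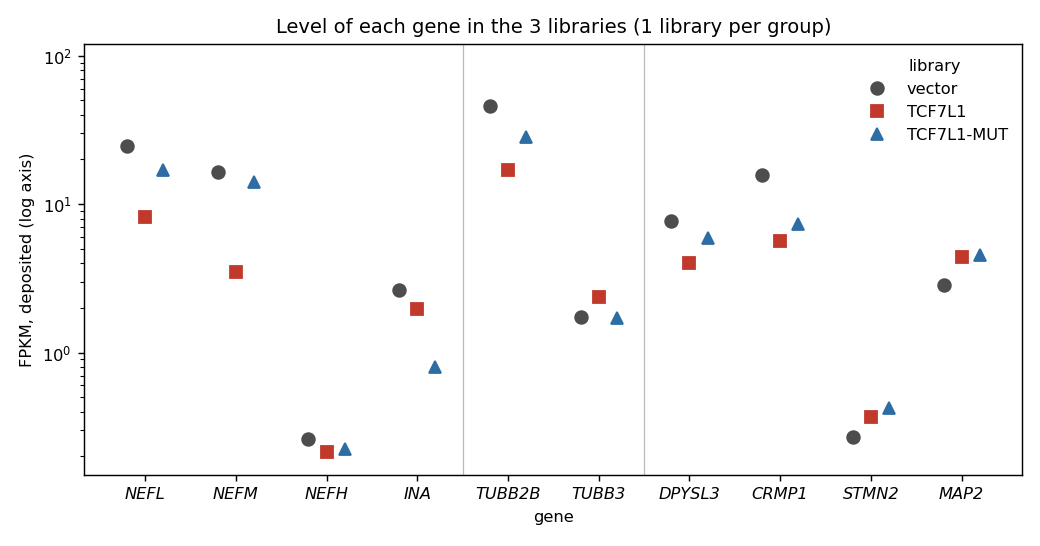
Deposited FPKM (vertical log axis) of the 10 genes in each of the 3 libraries, 1 point per library and no error bars, with grey lines between filament genes, tubulins and microtubule regulators. NEFM is at 16.4 FPKM in the vector library, 3.47 in TCF7L1 and 14.1 in TCF7L1-MUT, INA is lowest in TCF7L1-MUT at 0.800, and NEFH and STMN2 stay under 1 FPKM in all 3.

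Ratios within a library do not depend on how libraries are scaled to each other. *NEFM* took 40.2% of the summed *NEFM* and *NEFL* counts in the vector library (95% binomial interval 38.8 to 41.7), 30.0% in TCF7L1 (27.0 to 33.2) and 45.6% in TCF7L1-MUT (43.7 to 47.5). The 3 intervals did not overlap, so the ratio of the 2 neighbouring chains differed between these libraries beyond counting error. How far it varies between libraries of 1 group is not known. *INA* took 7.36% of the *INA* and *NEFL* counts in the vector library (6.44 to 8.37), 15.3% in TCF7L1 (12.7 to 18.1) and 3.40% in TCF7L1-MUT (2.55 to 4.43). Summed over the 4 filament genes, the level was 43.9 FPKM in the vector library, 13.8 in TCF7L1 and 32.1 in TCF7L1-MUT. As deposited, *NEFL* held the most of this sum in every library, at 56.1%, 59.1% and 52.9%, followed by *NEFM* at 37.3%, 25.1% and 43.9%. *NEFM* may be undercounted because of its antisense overlap, so the order of the 2 in TCF7L1-MUT, where they lay closest, is uncertain. *NEFH* made up 1.55% at most.

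The 2 tubulin genes moved apart. *TUBB2B* (chromosome 6, 3224261 to 3231730, minus strand, 4 exons) had 2537 counts in the vector library, 644 in TCF7L1 and 1247 in TCF7L1-MUT, or 45.8, 17.0 and 28.3 FPKM. It had the highest FPKM of the 10 genes in each library, and the TCF7L1 library was again the lowest. TCF7L1 over vector was -1.46 (-1.59 to -1.33) on the log2 scale, TCF7L1-MUT over vector -0.71 (-0.81 to -0.61) and TCF7L1 over TCF7L1-MUT -0.75 (-0.89 to -0.61). *TUBB3*, the isotype detected by the neuronal antibody TuJ1 (chromosome 16, 89921392 to 89938761, plus strand, 4 exons), had 195, 180 and 152 counts, or 1.74, 2.36 and 1.71 FPKM. Its value was somewhat higher in TCF7L1, at 0.40 over vector (0.10 to 0.70), and TCF7L1-MUT over vector was -0.04 (-0.36 to 0.27), within counting error.

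*TUBB2B* has a close copy, *TUBB2A*, and reads may have been split between them or dropped by the counting. The coding sequences are 98.2% identical over 1335 bases, with 24 differences and an identical stretch of 725 bases, so that the counts of both genes are uncertain. *TUBB2A* had 1453, 1281 and 1231 counts, and its log2 fold change over vector was 0.34 in TCF7L1 and 0.08 in TCF7L1-MUT. *TUBB2B* took 63.6% of the counts of the pair in the vector library (62.1 to 65.1), 33.5% in TCF7L1 (31.3 to 35.6) and 50.3% in TCF7L1-MUT (48.3 to 52.3). The copy was therefore not lower where *TUBB2B* was lower in these counts. *TUBB3* is more distant, at 88.2% identity to *TUBB2B*. *TUBB2B* also shares 174 of its 4160 exonic bases with *PSMG4*, whose log2 fold change over vector was -0.35 in TCF7L1 and 0.05 in TCF7L1-MUT.

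Within the summed FPKM of 9 beta-tubulin genes, which was 780, 859 and 793 in the vector, TCF7L1 and TCF7L1-MUT libraries, the neuronal isotypes were a small part. *TUBB2B* held 5.87%, 1.98% and 3.56% of it, and *TUBB3* held 0.223%, 0.275% and 0.215%. The broadly expressed isotypes *TUBB* (49.5%, 41.5% and 47.8%) and *TUBB4B* (31.3%, 40.3% and 34.6%) made up the most.

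**Figure D2:**
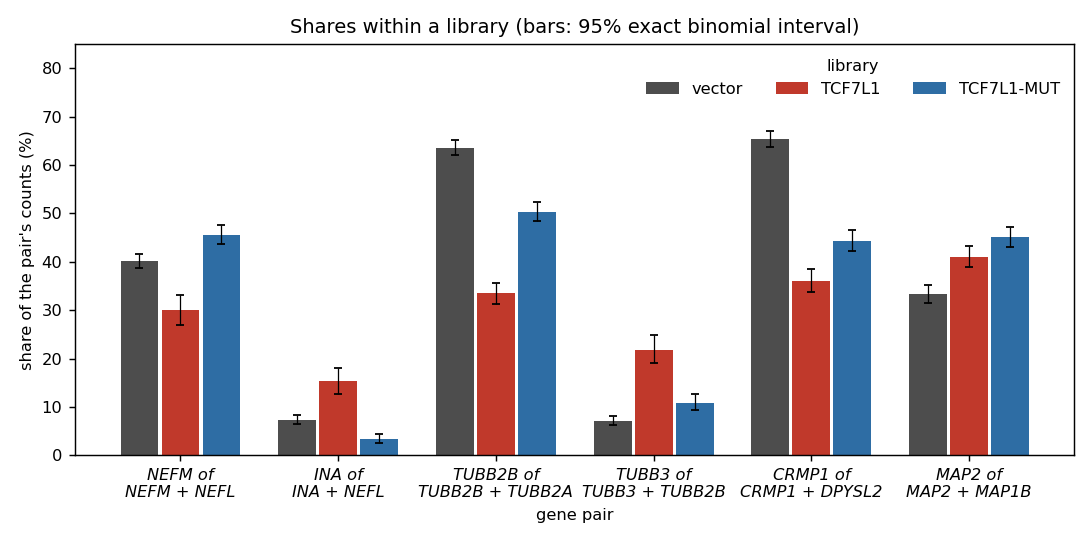
Share (%, vertical axis from 0) that the first gene of a pair takes of the pair's summed counts in each library, with 95% exact binomial intervals that cover counting error only. TUBB2B takes 63.6% of its pair with TUBB2A in the vector library and 33.5% in TCF7L1, and INA takes 7.36%, 15.3% and 3.40% of its pair with NEFL in the vector, TCF7L1 and TCF7L1-MUT libraries.

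Of the microtubule regulators, *CRMP1* and *DPYSL3* were lower in both construct libraries, *MAP2* was higher in both, and *STMN2* was barely detected. *CRMP1* (chromosome 4, 5748084 to 5893058, minus strand, 14 exons) had 2301 counts in the vector library, 569 in TCF7L1 and 858 in TCF7L1-MUT, or 15.6, 5.67 and 7.33 FPKM. The 2 construct libraries lay closer to each other than to the vector. The log2 fold change was -1.50 (-1.63 to -1.36) for TCF7L1 over vector and -1.11 (-1.22 to -0.99) for TCF7L1-MUT over vector, and TCF7L1 over TCF7L1-MUT was -0.39 (-0.55 to -0.24). *CRMP1* shares 159 of its 5869 exonic bases with the neighbouring gene *EVC*, which encodes a protein of the primary cilium. *EVC* had 624, 114 and 130 counts, with log2 fold changes over vector of -1.93 in TCF7L1 and -1.95 in TCF7L1-MUT, so the neighbour was lower in the same libraries.

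*DPYSL3*, also known as CRMP4 (chromosome 5, 147390811 to 147510056, minus strand, 14 exons), had 1396, 495 and 856 counts, or 7.71, 4.01 and 5.94 FPKM. Its log2 fold change of -0.98 (-1.13 to -0.83) for TCF7L1 over vector was just short of 2-fold, and the interval reaches past it. TCF7L1-MUT over vector was -0.39 (-0.51 to -0.27). *MAP2* (chromosome 2, 209424058 to 209734118, plus strand, 16 exons) had 831 counts in the vector library, 877 in TCF7L1 and 1048 in TCF7L1-MUT, or 2.85, 4.41 and 4.51 FPKM. Both construct libraries were above the vector, by 0.60 (0.46 to 0.73) for TCF7L1 and 0.65 (0.52 to 0.78) for TCF7L1-MUT on the log2 scale, and TCF7L1 over TCF7L1-MUT was -0.05 (-0.19 to 0.08). *STMN2* (chromosome 8, 79610814 to 79666175, plus strand, 5 exons) had 16, 15 and 20 counts, or 0.268, 0.369 and 0.421 FPKM, and its intervals held 0 in every comparison. It took 0.205%, 0.208% and 0.232% of the counts of *STMN2* and its ubiquitous relative *STMN1*.

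The collapsin response mediator genes together were at 49.9 FPKM in the vector library, 36.1 in TCF7L1 and 36.5 in TCF7L1-MUT. *CRMP1* held 31.4%, 15.7% and 20.1% of this sum, and *DPYSL3* held 15.5%, 11.1% and 16.3%. Against *DPYSL2*, the broadly expressed member of the family, *CRMP1* took 65.4% of the counts of the pair in the vector library, 36.1% in TCF7L1 and 44.4% in TCF7L1-MUT. *MAP2* took 33.4%, 41.1% and 45.1% of the counts of *MAP2* and *MAP1B*, another large neuronal microtubule-associated protein.

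**Figure D3:**
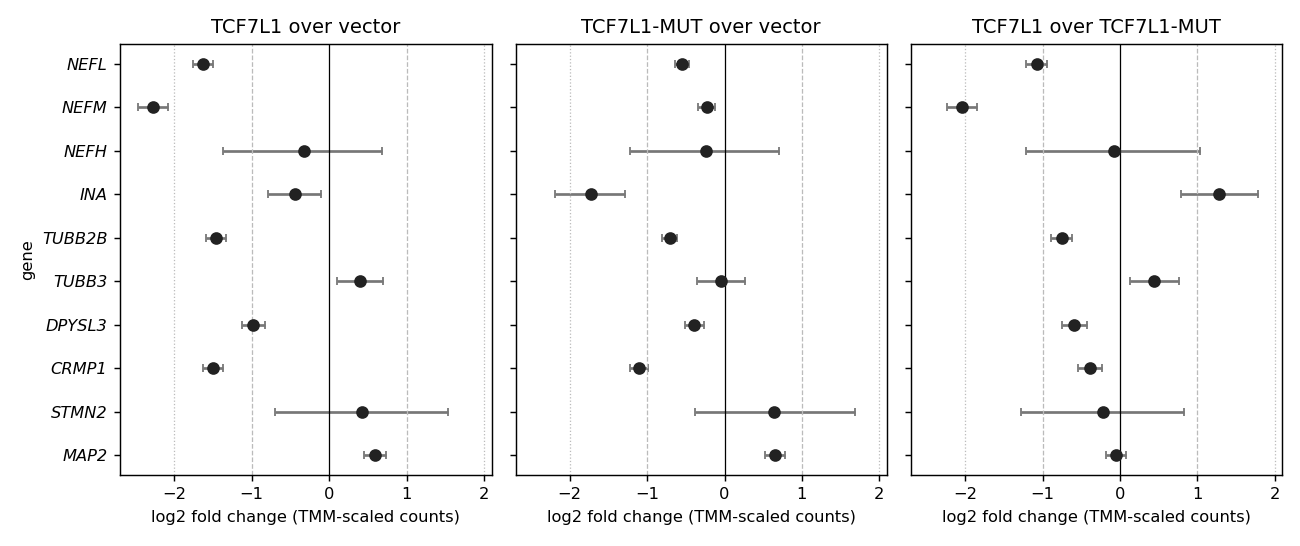
Log2 fold changes of TMM-scaled counts (horizontal axes) of the 10 genes for TCF7L1 over vector, TCF7L1-MUT over vector and TCF7L1 over TCF7L1-MUT, with 95% Clopper-Pearson intervals of counting error, dashed lines at 2-fold and dotted lines at 4-fold. NEFM at -2.27 is the only gene beyond 4-fold in the left panel, INA at 1.28 the only one beyond 2-fold on the higher side of the right panel, and NEFH and STMN2 have the widest intervals.

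Counting genes past a fold sets these values against the whole table. For TCF7L1 over vector, 4 of the 10 (*CRMP1*, *NEFL*, *NEFM* and *TUBB2B*) were past 2-fold lower, against 13.7% of the 22707 genes with a fold change, and 0 were past 2-fold higher, against 5.69%. Past 4-fold lower was *NEFM* alone, against 3.05% of genes, and past 4-fold higher there was 0, against 0.691%. For TCF7L1-MUT over vector, 2 of the 10 (*CRMP1* and *INA*) were past 2-fold lower, against 9.64% of 22753 genes, and 0 were past 2-fold higher, against 5.02%. None of the 10 was past 4-fold in that comparison, against 1.25% of genes lower and 0.607% higher. The 2 comparisons share the vector library, so their values are not independent.

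TCF7L1 over TCF7L1-MUT compares the 2 construct libraries. Its log2 values are the differences between those of the comparisons with the vector, so it is not independent of them. There 2 of the 10 (*NEFL* and *NEFM*) were past 2-fold lower, against 7.55% of 22343 genes, and 1 (*INA*) was past 2-fold higher, against 4.41%. *NEFM* was also past 4-fold lower, against 1.01%, and 0 were past 4-fold higher, against 0.474%. Many genes of the table have few counts, where large ratios come easily. Among the 12572 genes with at least 300 counts, which include 8 of the 10, the same genes were past 2-fold. The shares past 2-fold lower were 6.60% for TCF7L1 over vector, 2.96% for TCF7L1-MUT over vector and 1.81% for TCF7L1 over TCF7L1-MUT. Past 2-fold higher they were 1.38%, 0.445% and 0.103% in the same order. Past 4-fold lower, where *NEFM* was, they were 1.55% for TCF7L1 over vector and 0.247% for TCF7L1 over TCF7L1-MUT.

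Over the 10 genes, TCF7L1 over vector had a median of -0.71 on the log2 scale, with 7 below 0, beside -0.05 and 53.0% below 0 over all genes. For TCF7L1-MUT over vector it was -0.32, with 8 below 0, beside -0.04 and 53.1% below 0 over all genes. For TCF7L1 over TCF7L1-MUT it was -0.30 beside -0.02. The genes below 0 include *NEFH* in both comparisons with the vector and *TUBB3* in TCF7L1-MUT over vector, whose intervals held 0. Over the 8 with at least 300 counts the medians were -1.22, -0.47 and -0.49 in the same order, beside 0.02, 0.01 and 0.00 over all genes at that minimum. The spread within the 10 was wide, from -2.27 for *NEFM* to 0.60 for *MAP2* in the first comparison and from -1.73 for *INA* to 0.65 for *MAP2* in the second.

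Other genes of the same structures were read from lists of related genes. Beside the counts of these lists stand 13.7% of all genes past 2-fold lower and 5.69% higher for TCF7L1 over vector. For TCF7L1-MUT over vector these shares were 9.64% and 5.02%. Of 11 other intermediate filament and lamin genes with a fold change, 0 were past 2-fold in either direction in TCF7L1 or in TCF7L1-MUT over vector, and their median for TCF7L1 over vector was 0.26. *LMNA*, which encodes the nuclear lamins A and C, was at 0.91 for TCF7L1 over vector and 0.67 for TCF7L1-MUT. Of 13 other alpha- and beta-tubulin genes, 1 was past 2-fold lower and 1 higher in TCF7L1 (*TUBB8* and *TUBA3D*, both with at most 20 counts in those libraries), and the median was 0.38. The abundant *TUBB* and *TUBA1B* were at -0.15 and -0.05, far from the -1.46 of *TUBB2B*.

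Of 6 other CRMP and stathmin genes, 0 were past 2-fold lower in TCF7L1 and 1 was higher, *STMN4*, with 8 counts against 2. *DPYSL5* was at -0.37 and *STMN1* at 0.40 for TCF7L1 over vector. Of 16 other microtubule-associated protein genes, 2 were past 2-fold lower in TCF7L1, *MAP6*, which protects microtubules from cold (30 counts in the vector library, 4 in TCF7L1 and 19 in TCF7L1-MUT), and *DCLK1*, a doublecortin-like kinase (216, 54 and 63). *MAPT*, which encodes tau, was at 0.05 and -0.04 in the 2 comparisons with the vector, and *MAP4* and *MAPRE1* were at 0.10 and 0.22 for TCF7L1 over vector. *DCX*, doublecortin, had 0, 0 and 1 counts. The median of this list for TCF7L1 over vector was -0.05, and it lay between -0.10 and 0.04 over the scalings tried.

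Among 8 kinesin genes, 1 was past 2-fold lower in both construct libraries, *KIF1A*, the axonal transporter of synaptic vesicle precursors, which had 3488 counts in the vector library, 703 in TCF7L1 and 1020 in TCF7L1-MUT. *KIF5B*, the ubiquitous kinesin-1, was at 0.30 for TCF7L1 over vector. Of 11 genes for neurofilament kinases, linkers and turnover, such as *GSK3A*, *MAPK3* and *PLEC*, 0 were past 2-fold in either comparison with the vector. Of 10 axonal growth and actin genes, 1 was past 2-fold lower in TCF7L1, *BASP1*, a membrane protein of growth cones, with 3298, 553 and 1145 counts, and 1 was higher, *TAGLN3*, with 11, 20 and 11 counts. *GAP43*, the growth cone protein related to *BASP1*, had 142, 79 and 48 counts and was lowest in TCF7L1-MUT, as *INA* was. The actin-bundling gene *FSCN1* was at 0.92 for TCF7L1 over vector.

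**Figure D4:**
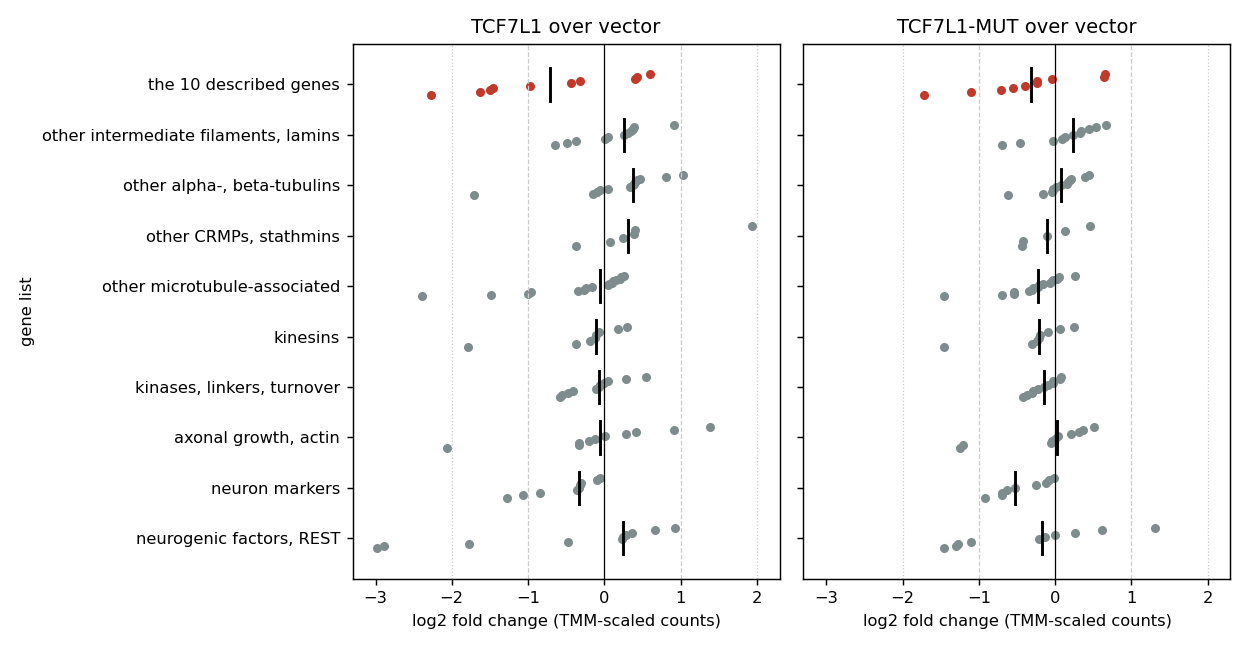
Log2 fold changes over vector (horizontal axes) for TCF7L1 (left) and TCF7L1-MUT (right), 1 point per gene with at least 10 counts and black bars at the median of each list, with dashed lines at 2-fold and dotted lines at 4-fold. In the left panel the 10 described genes, in red, have a median of -0.71, while the lists of other filament and tubulin genes have medians of 0.26 and 0.38.

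Neuronal regulators and markers were present in part. Of 10 neurogenic factor and *REST* complex genes with a fold change, 3 were past 2-fold lower in TCF7L1 over vector, against 13.7% of all genes. None was past 2-fold higher, against 5.69%, and the median was 0.24. In TCF7L1-MUT over vector 4 were past 2-fold lower and 1 higher, against 9.64% and 5.02% of all genes. *POU4F1*, a POU homeodomain factor of sensory neurons, had 3794 counts in the vector library, 335 in TCF7L1 and 1111 in TCF7L1-MUT, with log2 fold changes over vector of -2.98 and -1.46. *INSM1*, a zinc finger factor of neuroendocrine cells, had 276, 26 and 92 counts, and *NEUROG2*, a proneural factor, had 49, 10 and 16. For *NEUROG2* TCF7L1 over TCF7L1-MUT was -0.48 (-1.78 to 0.75), so its construct libraries did not differ beyond counting error. *POU4F1* and *INSM1* had the order of *NEFL* and *TUBB2B*, with TCF7L1-MUT between the others. Other factors of the list did not, with *ISL1* at 0.28 and 0.61 over vector in TCF7L1 and TCF7L1-MUT, *MYT1* at 0.23 and -0.13, and *SCRT1*, on at most 40 counts, at 0.67 and -0.21. For TCF7L1-MUT over vector the list's median was -0.17. *REST*, the repressor of neuronal genes in non-neuronal cells, was at 0.25 and 0.26 over vector, and its partner *RCOR1* at 0.36 and -0.01.

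Of 14 neuron markers, 9 had a fold change in TCF7L1 over vector, with a median of -0.34. There 2 were past 2-fold lower (*UCHL1* and *SNAP25*) and 0 higher, against 13.7% and 5.69% of all genes. In TCF7L1-MUT over vector 0 were past 2-fold, against 9.64% of all genes lower and 5.02% higher, and the median was -0.53. *UCHL1*, an abundant neuronal ubiquitin hydrolase, had 8266, 2380 and 4096 counts. *ELAVL4*, *SLC17A6*, *GAD2* and *TH* had at most 3 counts in every library. The summed FPKM of the list was 159 in the vector library, 73.7 in TCF7L1 and 101 in TCF7L1-MUT, and *UCHL1* alone made up 143, 60.6 and 89.3 of these sums.

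The cell type label was checked against its markers, and these were not all found. Of 15 colorectal epithelial markers, *EPCAM*, *KRT8*, *KRT18* and *KRT19* were well counted and *CDX2* had 1022, 465 and 637 counts, but *VIL1* had 9, 6 and 6, *CDH17* 6, 6 and 7, and *LGALS4* 3, 5 and 7. *CEACAM5* and *CEACAM6* had 0 in all 3 libraries, and *CDX1* had 0, 0 and 1. The summed FPKM of this list was 176 in the vector library, 291 in TCF7L1 and 261 in TCF7L1-MUT. *EPCAM* had 1581, 2448 and 2428 counts and was lowest in the library where *NEFL*, *TUBB2B* and *CRMP1* were highest, while *CDX2* had the order of those genes. *CDH1*, with 800, 376 and 443 counts, was also lower in both construct libraries. Its log2 fold change over vector was -0.57 (-0.75 to -0.39) in TCF7L1 and -0.54 (-0.71 to -0.37) in TCF7L1-MUT.

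Markers of HEK293, an embryonic kidney line known to express neuronal genes, including neurofilaments, were present as well. The list was written with earlier results of these data known, so its counts are descriptions and not support. Of the 10, 8 were past 2-fold lower in TCF7L1 over vector, against 13.7% of all genes with a fold change. None was past 2-fold higher, against 5.69%, and the median log2 fold change was -1.98. In TCF7L1-MUT over vector 3 were past 2-fold lower, against 9.64% of all genes, with a median of -0.52. *IRS4*, an insulin receptor substrate, had 20748 counts in the vector library, 2704 in TCF7L1 and 3882 in TCF7L1-MUT. *LIN28B* had 1083, 109 and 706, *BEX1* 823, 1 and 6, and *CDH2*, the neural cadherin, 2108, 463 and 1317. The list summed to 333 FPKM in the vector library, 114 in TCF7L1 and 127 in TCF7L1-MUT, and none of its genes was at 0 in any library. In TCF7L1 over vector 8 of the 10 were thus lower, as *NEFL*, *NEFM*, *TUBB2B* and *CRMP1* were. In TCF7L1-MUT over vector the genes differed, with *IRS4* at -2.10 and *LIN28B* at -0.30 beside -0.23 for *NEFM* and -1.11 for *CRMP1*. The part of this list in the results was not tested. In a bulk sample, fewer cells of a type and less RNA per cell cannot be told apart.

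The other 2 of the 10 went the other way in TCF7L1 over vector, *GAL* at 0.44 (0.33 to 0.55) and *PAX2* at 0.34 (0.13 to 0.54) on the log2 scale. In TCF7L1-MUT over vector they were at 0.09 and -0.08, and their intervals held 0. Of 8 fibroblast markers, 5 had a fold change for TCF7L1 over vector. Of these 3 were past 2-fold lower and 0 higher, against 13.7% and 5.69% of all genes. In TCF7L1-MUT over vector 6 had a fold change, with 2 past 2-fold lower and 1 higher, against 9.64% and 5.02%. *COL1A1* had 3993, 2182 and 2475 counts and *LUM* 161, 20 and 83, and the list summed to 19.1, 14.0 and 14.8 FPKM. The others past 2-fold lower in TCF7L1 were *PDGFRA*, with 75, 15 and 14 counts, and *DCN*, with 17, 0 and 5. The fold change of *DCN* rests on the floor of 3 counts. *PDGFRB* had 91, 76 and 108 counts. It was at 0.26 (-0.20 to 0.71) over vector in TCF7L1, within counting error, and higher in TCF7L1-MUT, at 0.56 (0.15 to 0.98). *COL1A2* had 3, 2 and 7 counts, and *THY1* and *FAP* had at most 3 in every library.

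**Figure D5:**
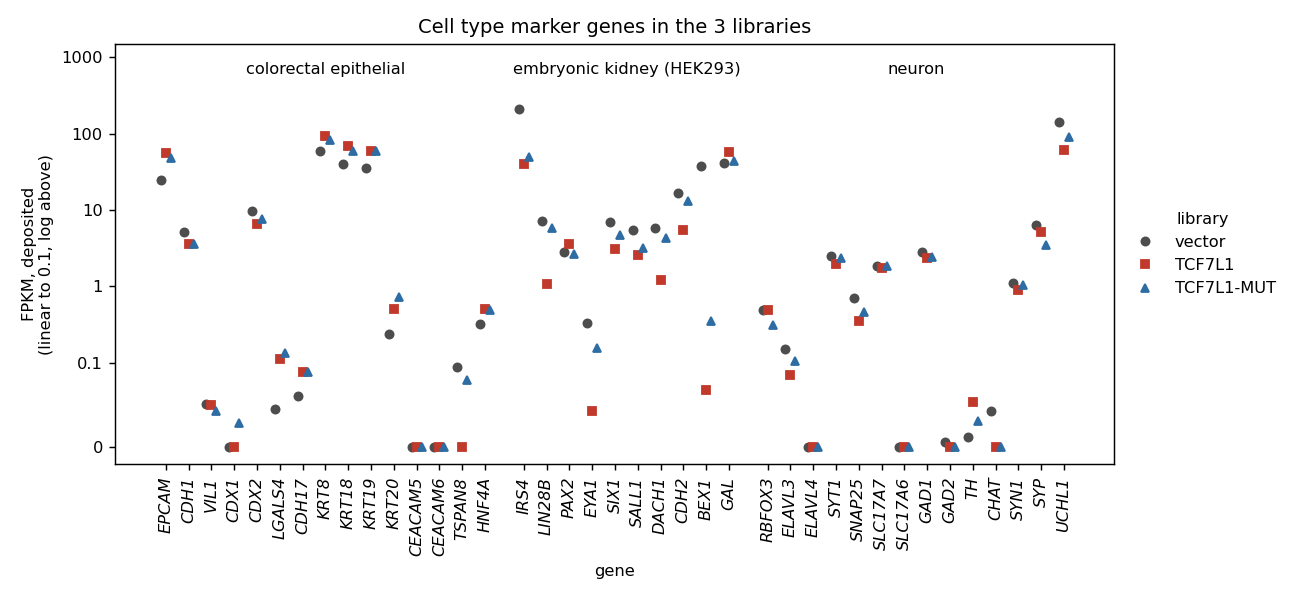
Deposited FPKM (vertical axis, linear to 0.1 and log above) of the colorectal epithelial, embryonic kidney (HEK293) and neuron markers in the 3 libraries, 1 point per library. IRS4, BEX1 and LIN28B are highest in the vector library, EPCAM is lowest there, and CEACAM5 and CEACAM6 are at 0 in all 3.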

How the data were processed

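RNA of 3 stable lines, 1 library per group, was analysed from the deposited tables. The raw counts per gene were made by the authors, with STAR (2.5) for mapping to GRCh38 and HTSeq (0.6.1) for counting. The counting mode and annotation release are not given in the sources used here. The FPKM values were deposited by the authors. The paper gives an adjustment of read counts with edgeR (3.16.5) through 1 scaling factor, and does not say how FPKM was made. The FPKM values imply library sizes of 1.04, 0.986 and 0.989 times the counted reads for the vector, TCF7L1 and TCF7L1-MUT. Counts were kept as deposited, gene names and coordinates were taken from the table, and exons and overlaps from GENCODE 44.

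TMM factors were computed in edgeR 4.0.16 (R 4.3.3), giving scaled library sizes of 24830677, 17339676 and 19948662. Counts at or under 3 were set to 3, and no fold was given where both were. Intervals at 95% used scipy 1.17.1 (Python 3.11.15, numpy 2.4.6, pandas 2.3.3, matplotlib 3.10.9). With 1 library per group no test was run, and 2-fold and 4-fold thresholds were used for description, the second being the study's. The procedure was tested on simulated data. Alternatives were DESeq2 1.42.0 size factors, library size only, upper quartile factors, a prior count of 2, FPKM with pseudocounts of 1 and 0.1, other filters on low counts and shares of counts in place of FPKM.

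The members and lists were chosen with earlier results of these data known. Named genes were all 10 members, up to 3 genes of highest mean FPKM and up to 4 past 4-fold per related list, TCF7L1, and for markers those of highest FPKM and those at or under 3 counts, not all of which are printed. Other genes named, among them *TUBB2A*, *KIF1A*, *DCLK1*, *GAP43*, *MAPT*, *EVC*, *EPCAM*, *CDX2*, *CDH2*, *VIL1*, *CDH17*, *LGALS4*, *PAX2*, *ISL1*, *MYT1*, *SCRT1*, *TUBB8*, *TUBA3D*, *STMN4*, *TAGLN3*, *SNAP25*, *NEUROG2* and *VIM*, were chosen after their values were seen. *CDH1*, *DCN* and *COL1A2* were also named after their values were seen, and the filter at 300 counts was chosen after seeing the data.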

Additional observations from a re-analysis of the deposited data

Results flagged for a closer look

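*VIM*, which encodes the intermediate filament vimentin and is no member of the 10, was read from the list of other filament genes. It had 5373 counts in the vector library, 2662 in TCF7L1 and 5450 in TCF7L1-MUT. It moved in opposite directions in the construct libraries, with log2 fold changes over vector of -0.50 (95% interval -0.56 to -0.43) in TCF7L1 and 0.34 (0.28 to 0.39) in TCF7L1-MUT. With 1 library per group the difference was not tested, and both values share the vector library.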

How the results depend on the processing

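With counts, the scalings and the prior count left every member's fold change within its counting interval (0 of 120 recomputed values outside). With FPKM 7 of 60 were outside, all at a pseudocount of 1, and 1 of the 180 changed sign, *TUBB3* in TCF7L1-MUT over vector, from -0.04 to 0.02 with upper quartile factors, within counting error. With library size only, 5 members in place of 4 were past 2-fold lower in TCF7L1 over vector, as *DPYSL3* was at -1.03. With that pseudocount 0 members were past 4-fold lower in TCF7L1 over vector, and 1 was past 2-fold lower in TCF7L1-MUT over vector. In TCF7L1 over TCF7L1-MUT it gave 1 past 2-fold lower, 0 past 2-fold higher and 0 past 4-fold lower, and a pseudocount of 0.1 also gave 0 past 4-fold lower. A pseudocount shrinks low values by construction. Of 288 recomputed list counts, 35 moved. Library size alone set the median of all genes at -0.10 in both comparisons with the vector. No paired analysis was possible because each group has 1 library. For *NEFH* and *STMN2*, depth limits what can be read.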
